A study of Mus musculus with 12 samples.

Results

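The genes that carry out autophagy and mitophagy were followed in mouse neural precursor cells exposed to hydrogen peroxide. The set holds 44 genes chosen by symbol among the 15478 genes of the authors' deposited table. A gene absent from that table could not be a member. The cells were primary neural precursors of adult female C57BL/6 mice aged 5 to 12 weeks, grown undifferentiated. Cells received 100 µM H2O2 for 1 h or for 8 h, and control cells received a sham exposure to PBS. Each of the 3 groups has 4 samples, 12 in all, which per the design text came from the same 4 animals, and poly-A RNA was sequenced. When the control cells were collected is not stated by the sources used here.

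Autophagy encloses cytoplasm, protein aggregates or organelles in a double membrane, the autophagosome, which then fuses with the lysosome. The ULK1 kinase complex starts the process, a lipid kinase complex marks the membrane, and WIPI, ATG9 and ATG2 proteins bring lipid to it. Enzymes related to those of ubiquitin transfer then attach LC3 and GABARAP proteins to the growing membrane, where cargo receptors bind them. Mitophagy is the form that removes damaged mitochondria, through PINK1 or through receptors in the outer mitochondrial membrane. In neural stem cells autophagy is known to take part in survival and in the balance of quiescence and activation.

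Promoter windows of 6 members are shown as examples, picked with their changes known and not by 1 rule. Wipi1 and Tax1bp1 had the largest rises at 8 h, Atg3, Atg5 and Atg7 are conjugation enzymes called higher at 8 h, and Atg14 had the largest rise at 1 h. Pik3r4, at 0.38 at 8 h, also has a window and rose more than Atg3, Atg5 or Atg7. Because Atg3, Atg5, Atg7 and Atg14 are among only 5 members with the letters CACGTG, the printed windows do not represent all 41. Each window runs from 250 bases before to 50 bases after a transcript start of RefSeq on build GRCm38.p6. Capitals mark an E-box CACGTG, the letters bound by TFEB and related factors, or TGACNNNGC, the core of the antioxidant response element, on either strand. The Wipi1 window, chr11:109611340-109611639 on the minus strand, holds neither. Of 2 Tax1bp1 windows, the one printed, which holds TGACNNNGC, is chr6:52713915-52714214 on the plus strand; the other, chr6:52713479-52713778, spans the first base of the annotated gene and holds neither. The Atg3 window is chr16:45158579-45158878 on the plus strand and the Atg5 window chr10:44268089-44268388 on the plus strand. The Atg7 window is chr6:114670846-114671145 on the plus strand, and the Atg14 window is chr14:47568385-47568684 on the minus strand. The printed windows of Wipi1, Tax1bp1, Atg7 and Atg14 lie wholly inside the annotated gene, at a RefSeq start downstream of its first base, and those of Atg3 and Atg5 span that first base.
Wipi1: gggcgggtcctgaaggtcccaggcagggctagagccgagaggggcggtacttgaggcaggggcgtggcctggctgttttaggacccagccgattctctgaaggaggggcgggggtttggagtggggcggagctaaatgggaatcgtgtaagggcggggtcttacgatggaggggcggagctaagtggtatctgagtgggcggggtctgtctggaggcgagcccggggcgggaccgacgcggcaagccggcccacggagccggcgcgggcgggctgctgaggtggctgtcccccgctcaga
Tax1bp1: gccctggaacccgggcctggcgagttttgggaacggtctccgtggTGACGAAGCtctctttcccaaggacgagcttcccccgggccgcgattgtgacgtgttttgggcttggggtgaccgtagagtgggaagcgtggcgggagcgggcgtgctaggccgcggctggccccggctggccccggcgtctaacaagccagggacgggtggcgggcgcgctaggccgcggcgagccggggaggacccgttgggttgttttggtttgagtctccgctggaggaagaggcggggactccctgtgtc
Atg3: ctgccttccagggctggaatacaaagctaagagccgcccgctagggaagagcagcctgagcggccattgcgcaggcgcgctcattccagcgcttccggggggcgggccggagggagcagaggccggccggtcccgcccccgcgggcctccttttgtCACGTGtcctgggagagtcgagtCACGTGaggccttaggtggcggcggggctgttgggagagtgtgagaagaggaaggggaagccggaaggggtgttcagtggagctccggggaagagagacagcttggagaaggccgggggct
Atg5: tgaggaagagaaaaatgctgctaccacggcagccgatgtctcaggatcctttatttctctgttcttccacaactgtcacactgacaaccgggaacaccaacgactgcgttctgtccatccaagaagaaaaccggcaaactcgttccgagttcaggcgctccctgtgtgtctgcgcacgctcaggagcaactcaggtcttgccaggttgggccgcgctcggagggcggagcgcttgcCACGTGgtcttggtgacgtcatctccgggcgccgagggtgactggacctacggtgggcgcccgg
Atg7: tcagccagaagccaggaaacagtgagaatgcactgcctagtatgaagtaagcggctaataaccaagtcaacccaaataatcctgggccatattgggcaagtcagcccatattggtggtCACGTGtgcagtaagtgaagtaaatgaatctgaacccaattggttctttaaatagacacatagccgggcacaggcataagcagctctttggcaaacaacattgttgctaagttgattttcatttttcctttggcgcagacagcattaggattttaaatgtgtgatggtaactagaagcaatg
Atg14: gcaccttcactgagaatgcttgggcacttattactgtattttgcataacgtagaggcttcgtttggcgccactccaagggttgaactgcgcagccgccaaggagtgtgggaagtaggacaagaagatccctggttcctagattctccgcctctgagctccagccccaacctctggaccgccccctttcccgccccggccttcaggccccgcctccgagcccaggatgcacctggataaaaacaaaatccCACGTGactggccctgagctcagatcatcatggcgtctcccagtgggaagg

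Windows were found for 35 of the 44 members, 41 windows in all. CACGTG was present in 5 of the 41 windows, those of Atg3, Atg5, Atg7, Atg14 and Bnip3, which is 12.2% against 9.54% of the 14226 windows of genes in the table and 7.15% of all 32851 windows. TGACNNNGC was present in 7 of the 41, or 17.1%, against 14.1% and 12.4%, in windows of Atg13, Map1lc3b, Tax1bp1, Ulk2 and Vmp1. The FOXO letters GTAAACA and the AP-1 letters TGANTCA, searched on both strands, matched 0 of the 41, against 2.51% and 5.01% of the windows of genes in the table. TGACNNNGC and TGANTCA can match the same letters. The shares of members are thus within a few windows of the background. The other 9 members, Pik3c3, Rb1cc1, Wdfy3, Becn1, Epg5, Map1lc3a, Atg16l1, Atg12 and Bnip3l, are named only.

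All log2 fold changes, mean levels and adjusted p-values below are values of the authors' deposited table, which compares groups by the likelihood ratio test of edgeR with Benjamini-Hochberg adjustment over all 15478 genes. A gene is called higher or lower where its adjusted p was below 0.05. The table holds 0 columns of single samples, so neither sample values nor their overlap can be given, and each test rests on an unstated number of samples, up to 4 a group. The standard error (SE) after a log2 fold change was computed from that fold change and its likelihood ratio. Depth per sample is unknown. Markers of neural stem and progenitor cells were all in the table, 12 of 12, with mean levels from 1.55 to 11.97 log2 CPM, a count scaled to the library. Markers of neurons (5 of 5) and of the oligodendrocyte lineage (7 of 7) were also present, while 5 of 7 microglial markers and 3 of 5 endothelial markers were absent from the table. At 8 h against control, where 27.4% of all genes were called higher and 28.2% lower, 3 of the 12 stem and progenitor markers were higher and 7 lower. At that time 0 neuronal markers were higher and 4 lower, 0 oligodendrocyte markers higher and 6 lower, 0 of 4 astrocyte markers higher and 3 lower, and 2 of 3 ependymal markers in the table higher and 0 lower; their part in the changes of the autophagy genes was not tested. In bulk RNA, fewer cells of a type and less RNA per cell cannot be told apart.

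The autophagy genes of the set, chosen among genes present in the authors' deposited table, were well expressed in these cells. Mean levels over all samples ran from 1.33 log2 CPM for Atg10 to 7.79 for Nbr1 in the authors' deposited table, and all 44 reached at least 1. Per kb of exon, Gabarap was highest at 6.60 log2 CPM per kb, followed by Gabarapl1 at 5.77, Vmp1 at 5.35, Map1lc3a at 5.21 and Nbr1 at 5.01. The lowest levels per kb were those of Atg10 at 0.55, Wdr45 at 1.11, Uvrag at 1.19 and Optn at 1.53. Of the exon bases of Wdr45, 24.7% are shared on the same strand with Gm45208, and of those of Atg9a 31.8% with Gm29253, so reads there cannot be assigned to 1 gene by strand. Of the 5 genes for the small ubiquitin-like proteins that coat the autophagosome, 3 were among the highest 5, while Gabarapl2 stood at 4.16 and Map1lc3b at 3.68. The order per kb depends on the summed exon length, 7.52 kb for Map1lc3b and 1.18 kb for Map1lc3a. Without that correction Map1lc3b stood above Map1lc3a, at 6.59 against 5.45 log2 CPM. No spread over samples can be given for these levels, so neighbours in this order cannot be told apart or ranked beyond their means.

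**Figure D1:**
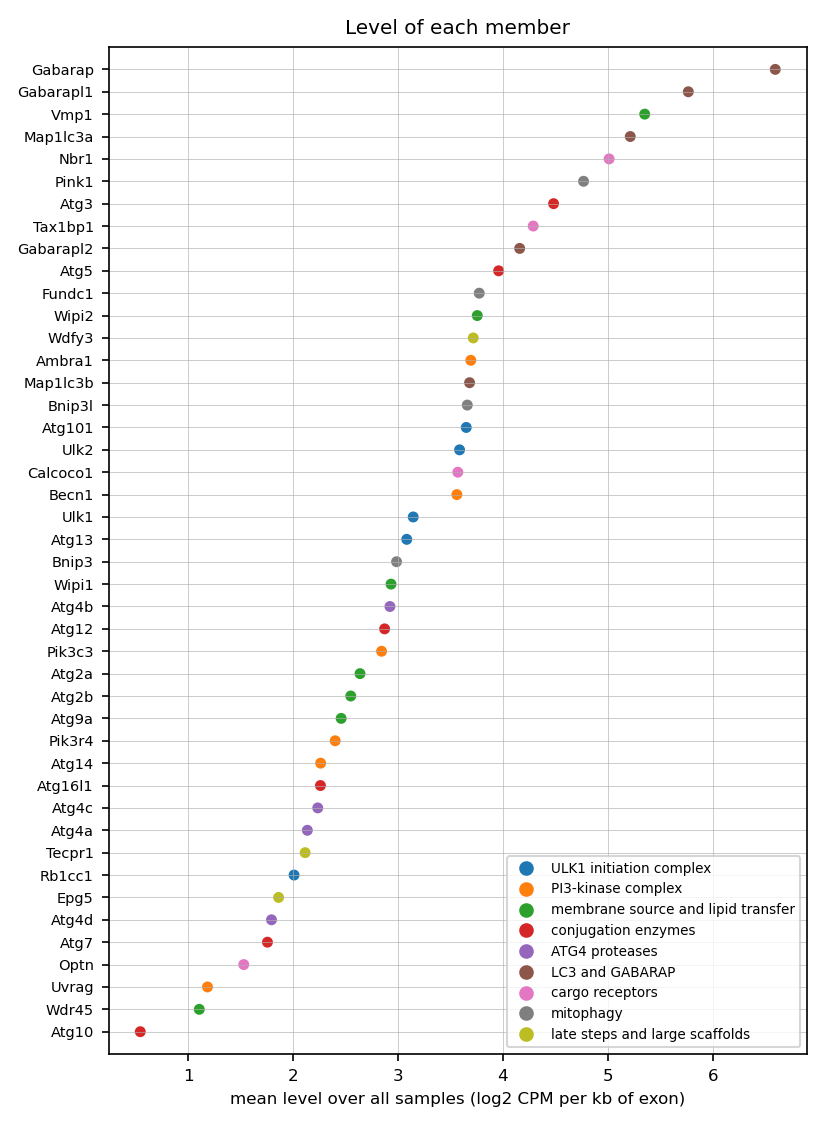
Mean level of each of the 44 genes over all samples, in log2 CPM per kb of exon (horizontal axis), coloured by role; each point is 1 value of the authors' deposited table corrected for exon length, with no error available. Gabarap stands at 6.60 and Atg10 at 0.55.

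At 1 h more autophagy genes were lower than higher, and at 8 h more were higher than lower, with every change below 2-fold. Of the 44, 8 were called higher at 1 h and 17 lower in the authors' deposited table, where 20.5% and 22.2% of all genes were, 42.7% in either direction. At 8 h against control 19 were called higher and 6 lower, where 27.4% and 28.2% of all genes were, 55.7% in either direction. At 8 h against 1 h 22 were higher and 5 lower, where 30.3% and 32.4% of all genes were, 62.7% in either direction. As shares of the 44, that is 18.2% higher and 38.6% lower at 1 h and 43.2% and 13.6% at 8 h. The share of members called in either direction, 56.8% at 1 h, 56.8% at 8 h and 61.4% between the times, was near the background at both later comparisons, and the split of directions there was 19 to 6 and 22 to 5 beside near-even splits over all genes. Among the 12408 genes with a mean of at least 1 log2 CPM, which all members reach, 19.7% were higher and 27.5% lower at 1 h, 47.2% in either direction, and 31.3% and 31.1% at 8 h. At 8 h against 1 h 35.9% of those genes were higher and 31.5% lower.

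The sizes were small. The members' median log2 fold change was -0.06 at 1 h, 0.08 at 8 h and 0.10 at 8 h against 1 h, where the medians of all genes were 0.01, 0.01 and -0.01. The lowest values were those of Wdfy3 at 1 h (-0.50), Atg10 at 8 h (-0.34, not called) and Atg14 at 8 h against 1 h (-0.35). The highest were those of Atg14 at 1 h (0.40) and of Wipi1 at 8 h (0.96) and at 8 h against 1 h (0.76). A total of 0 members changed by 2-fold or more in any comparison. Among all genes of the authors' deposited table, 646, 1307 and 1700 were called and reached that size, or 4.17%, 8.44% and 10.98%. The 95% interval lay wholly within 0.32 of 0 on the log2 scale, in either direction, for 28 members at 1 h, 31 at 8 h and 24 at 8 h against 1 h. It lay wholly beyond 0.32 for Wdfy3 at 1 h, for Wipi1 and Tax1bp1 at 8 h, and for Pik3r4, Atg2b, Wipi1, Vmp1 and Tax1bp1 at 8 h against 1 h. The comparisons share samples: both set a time against the same controls, and the third is their difference.

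**Figure D2:**
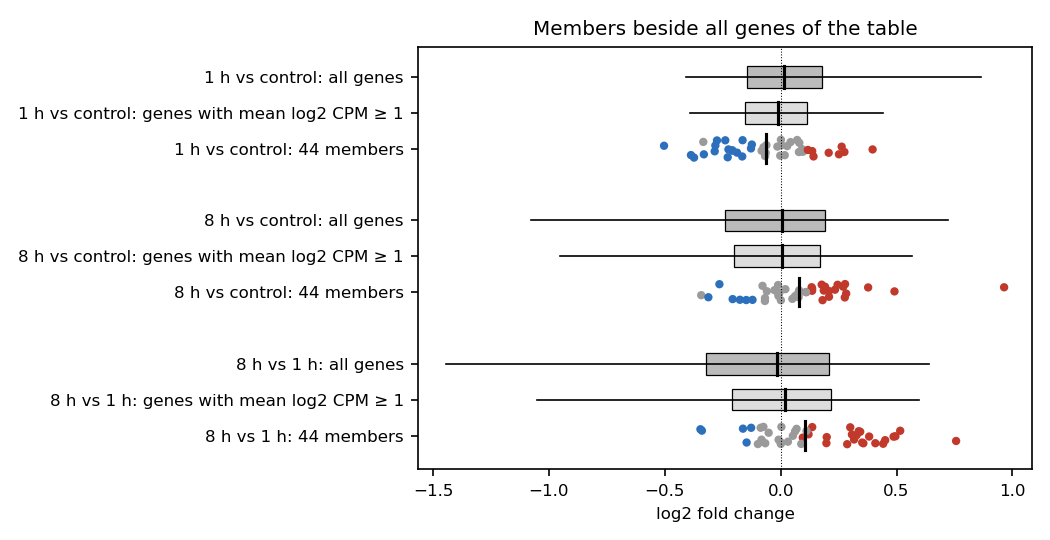
Log2 fold change (horizontal axis) in the 3 comparisons. Boxes span the 25th to 75th percentile with the median as a line and whiskers from the 5th to the 95th percentile, for all 15478 genes and for the 12408 with a mean of at least 1 log2 CPM; points are the 44 members, red where called higher, blue where called lower and grey where not called, with a line at their median. The member medians stand at -0.06, 0.08 and 0.10.

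The ULK1 complex, the kinase assembly that starts autophagosome formation, was split. At 1 h 2 of its 5 members were higher and 2 lower, at 8 h 2 were higher and 1 lower. Of all genes, 20.5% were higher and 22.2% lower at 1 h, and 27.4% and 28.2% at 8 h. In the authors' deposited table Rb1cc1, the large scaffold also called FIP200, had a log2 fold change of -0.27 at 1 h (SE 0.049, adjusted p = 2.3e-07) and 0.13 at 8 h (SE 0.046, adjusted p = 0.0082). Its difference between the times, 0.41 (SE 0.048, adjusted p = 8.5e-17), was the largest of the complex. Atg101, which stabilises the ATG13 subunit, rose by 0.25 at 1 h (SE 0.075, adjusted p = 0.0031) and by 0.18 at 8 h (SE 0.072, adjusted p = 0.028). The kinase gene Ulk1 was 0.14 higher at 1 h, a call lost in the authors' voom table and after setting the median of all genes to 0, and stood at -0.03 at 8 h, not called. Its paralog Ulk2 fell at both times, by 0.12 (SE 0.042, adjusted p = 0.010) and by 0.21 (SE 0.041, adjusted p = 1.6e-06). Atg13 was not called in any comparison, with 95% intervals from -0.04 to 0.18 at both times.

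The genes of the lipid kinase complex that makes phosphatidylinositol 3-phosphate were lower in 3 of 6 cases and higher in 1 at 1 h, with 1 higher and 1 lower at 8 h. The shares over all genes were 20.5% higher and 22.2% lower at 1 h, and 27.4% and 28.2% at 8 h. Atg14, the subunit that directs the complex to the site of autophagosome formation, was the 1 called higher at 1 h in the authors' deposited table, at 0.40 (SE 0.073, adjusted p = 4.5e-07). By 8 h Atg14 stood at 0.05, with a 95% interval from -0.09 to 0.19, and the fall between the times was -0.35 (SE 0.070, adjusted p = 2.3e-06). The catalytic subunit Pik3c3, VPS34, fell by 0.21 at 1 h (SE 0.058, adjusted p = 0.0013) and stood at 0.08 at 8 h, not called. Ambra1, a regulator of the complex, fell by 0.33 at 1 h (SE 0.044, adjusted p = 1.3e-12) and stood at 0.02 at 8 h, with an interval from -0.06 to 0.10. Pik3r4, the VPS15 subunit that anchors the kinase, was not called at 1 h (-0.06) and rose by 0.38 at 8 h (SE 0.046, adjusted p = 1.4e-15). Uvrag, whose protein takes the place of ATG14 in a second complex, was 0.17 lower at 1 h, a call lost in the voom table, and fell by 0.26 at 8 h (SE 0.068, adjusted p = 0.00027). Becn1, the Beclin 1 subunit of both complexes, was not called in any comparison, with -0.07 at both times. Of its exon bases 43.9% lie opposite exons of Cntd1, which had a mean of -0.80 log2 CPM against 6.38 for Becn1; the sources used here do not say whether counting used strand.

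Genes that bring membrane and lipid to the growing autophagosome held the largest rise of the set. Wipi1, which binds phosphatidylinositol 3-phosphate on the early membrane and whose promoter window is printed above, was 0.21 higher at 1 h and rose by 0.96 at 8 h (SE 0.054, adjusted p = 1.0e-68) in the authors' deposited table. The rise from 1 h to 8 h was 0.76 (SE 0.054, adjusted p = 6.1e-43). Its paralog Wipi2 stood at 0.08 at 1 h, not called, and rose by 0.28 at 8 h (SE 0.037, adjusted p = 2.5e-13), while Wdr45, a further member of that family, was not called in any comparison. Of the lipid transfer genes, Atg2a fell by 0.39 at 1 h (SE 0.054, adjusted p = 9.0e-12) and stood at -0.06 at 8 h, not called. Atg2b fell by 0.24 at 1 h (SE 0.045, adjusted p = 1.1e-06) and rose by 0.28 at 8 h (SE 0.042, adjusted p = 3.9e-10). Vmp1, a lipid scramblase of the endoplasmic reticulum, followed the same course at -0.23 (SE 0.044, adjusted p = 2.1e-06) and 0.27. Atg9a, the scramblase of the vesicles that seed the membrane, was not called at either time, with 0.00 and -0.08. In all, 1 of these 7 genes was higher and 3 lower at 1 h, and 4 were higher and 0 lower at 8 h. Among all genes the shares were 20.5% higher and 22.2% lower at 1 h, and 27.4% and 28.2% at 8 h.

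The enzymes that conjugate LC3 and GABARAP to lipid were mostly higher at 8 h, with 4 of 6 higher and 1 lower, against 0 higher and 2 lower at 1 h. Over all genes 27.4% were higher and 28.2% lower at 8 h, and 20.5% and 22.2% at 1 h. Atg3, the E2-like enzyme that makes the final transfer, stood at -0.06 at 1 h, not called, and rose by 0.25 at 8 h (SE 0.046, adjusted p = 5.0e-07) in the authors' deposited table. Atg5, which is joined to ATG12, stood at -0.07 at 1 h, not called, and rose by 0.28 at 8 h (SE 0.052, adjusted p = 2.8e-07). Atg7, the E1-like enzyme of both conjugation pathways, fell by 0.16 at 1 h (SE 0.066, adjusted p = 0.032) and was 0.14 higher at 8 h, a call lost in the voom table and after setting the median of all genes to 0. Between the times Atg3 rose by 0.31, Atg5 by 0.36 and Atg7 by 0.30. Of the other 2 members with an E-box, Atg14 fell by 0.35 between the times and Bnip3 was not called, at 0.11. Atg12 rose by 0.19 at 8 h (SE 0.041, adjusted p = 1.2e-05). Atg16l1, which places the ATG12-ATG5 conjugate on the membrane, was lower by 0.28 at 1 h (SE 0.051, adjusted p = 1.7e-07) and still 0.15 lower at 8 h. Between the times Atg16l1 was called higher, by 0.14, and 5 of the 6 enzymes were higher and 0 lower. Of all genes, 30.3% were higher and 32.4% lower between the times. Atg10, the E2-like enzyme for ATG12, had the widest intervals of the set, from -0.70 to 0.03 at 1 h and from -0.68 to 0.00 at 8 h.

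The ATG4 proteases trim LC3 and GABARAP before conjugation and release them from the membrane afterwards. Of the 4 genes, 0 were higher and 2 lower at 1 h, and 1 was higher and 1 lower at 8 h in the authors' deposited table. Over all genes 20.5% were higher and 22.2% lower at 1 h, and 27.4% and 28.2% at 8 h. Atg4c fell by 0.37 at 1 h (SE 0.086, adjusted p = 6.7e-05) and stood at 0.08 at 8 h, not called. Atg4d fell by 0.23 at 1 h (SE 0.064, adjusted p = 0.0015) and by 0.18 at 8 h (SE 0.061, adjusted p = 0.0081). Of its exon bases 19.3% lie opposite exons of Kri1, a gene of 5.47 log2 CPM on average with a log2 fold change of 0.02 at 1 h and -0.07 at 8 h. Atg4a was 0.23 higher at 8 h (SE 0.089, adjusted p = 0.017), a call lost in the voom table. Atg4b, the protease with the highest level per kb of the 4, had -0.01 at both times, with intervals from -0.10 to 0.07 and from -0.09 to 0.07.

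LC3 and GABARAP genes, which encode the proteins that coat the autophagosome membrane and recruit cargo, were the only role group besides mitophagy with higher and no lower calls at 1 h, 2 of 5 higher and 0 lower. All 5 genes span 12.9 kb or less and lie in the shortest 3 of 8 equal-size bins of genomic span. In those bins 36.9%, 32.9% and 28.9% of protein-coding genes were higher at 1 h, and 5.13%, 8.20% and 10.5% were lower. At 8 h 3 of the 5 were higher and 0 lower, where 27.4% and 28.2% of all genes were. Map1lc3a in the authors' deposited table rose by 0.27 at 1 h (SE 0.057, adjusted p = 9.9e-06) and by 0.21 at 8 h (SE 0.055, adjusted p = 0.00045). Gabarapl1 rose by 0.26 at 1 h (SE 0.039, adjusted p = 3.2e-10) and by 0.14 at 8 h (SE 0.038, adjusted p = 0.0011), and fell by 0.13 between the times (SE 0.038, adjusted p = 0.0018). Of its exon bases 28.3% lie opposite exons of 1700101I11Rik, a transcript of -1.11 log2 CPM on average against 6.78 for Gabarapl1, with log2 fold changes of 2.35 at 1 h and 1.43 at 8 h; its part in the change of Gabarapl1 was not tested. Gabarap was not called at 1 h (0.08) and rose by 0.11 at 8 h (SE 0.038, adjusted p = 0.0085). Map1lc3b, the LC3 form most used as an autophagosome marker, stood at 0.09 at 1 h and 0.00 at 8 h, not called at either time, with an 8 h interval from -0.09 to 0.09. Gabarapl2 stood at 0.04 and -0.01, not called.

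Cargo receptors link ubiquitinated or other cargo to LC3 and GABARAP. Among the 4, 0 were higher and 2 lower at 1 h, and 3 were higher and 0 lower at 8 h in the authors' deposited table. The shares over all genes were 20.5% higher and 22.2% lower at 1 h, and 27.4% and 28.2% at 8 h. Tax1bp1, a receptor for ubiquitinated protein aggregates, stood at 0.00 at 1 h with an interval from -0.06 to 0.07 and rose by 0.49 at 8 h (SE 0.033, adjusted p = 1.3e-47). Calcoco1, a receptor for the endoplasmic reticulum and the Golgi, fell by 0.13 at 1 h (SE 0.045, adjusted p = 0.013) and rose by 0.21 at 8 h (SE 0.042, adjusted p = 3.1e-06). Nbr1, a receptor for protein aggregates and peroxisomes, fell by 0.19 at 1 h (SE 0.036, adjusted p = 1.3e-06) and stood at -0.07 at 8 h, not called. Optn, which serves both aggregates and mitochondria, was 0.18 higher at 8 h (SE 0.082, adjusted p = 0.049), a call lost in the voom table and after setting the median of all genes to 0.

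The mitophagy genes did not share a direction at 8 h. Of the 4, 2 were higher and 0 lower at 1 h, and 1 was higher and 1 lower at 8 h in the authors' deposited table. Over all genes 20.5% were higher and 22.2% lower at 1 h, and 27.4% and 28.2% at 8 h. Fundc1 and Pink1 lie in bin 3 and Bnip3 and Bnip3l in bin 4 of the 8 span bins, counted from the shortest. In those bins 28.9% and 24.2% of protein-coding genes were higher at 1 h, and 10.5% and 14.5% were lower. Pink1, the kinase that marks depolarised mitochondria, was 0.12 higher at 1 h (SE 0.046, adjusted p = 0.027), a call lost after setting the median of all genes to 0, and rose by 0.19 at 8 h (SE 0.044, adjusted p = 7.2e-05). Fundc1, a receptor of the outer membrane known from hypoxia, stood at 0.03 at 1 h, not called, and fell by 0.31 at 8 h (SE 0.055, adjusted p = 7.2e-08). Bnip3l, the receptor NIX known from the clearance of mitochondria in maturing red cells, rose by 0.14 at 1 h (SE 0.056, adjusted p = 0.029) and stood at -0.01 at 8 h, not called. The related receptor Bnip3 was not called in any comparison, with intervals from -0.17 to 0.16 at 1 h and from -0.05 to 0.26 at 8 h.

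The late-acting and large scaffold genes were all lower at 1 h, 3 of 3, where 22.2% of all genes were. In 8 equal-size bins of genomic span, Wdfy3 lies in the longest and Epg5 in the next. There 61.5% and 48.9% of protein-coding genes were lower at 1 h, and 18.2% in the bin of Tecpr1. In the authors' deposited table Wdfy3, or ALFY, a very large protein that bridges aggregates to the autophagy machinery, fell by 0.50 at 1 h (SE 0.037, adjusted p = 1.3e-39) and was still lower by 0.12 at 8 h (SE 0.036, adjusted p = 0.0018). Epg5, a tether for fusion of autophagosomes with lysosomes, fell by 0.28 at 1 h (SE 0.069, adjusted p = 0.00022) and stood at 0.06 at 8 h, not called. Tecpr1, which also takes part in that fusion, fell by 0.21 at 1 h (SE 0.047, adjusted p = 6.0e-05) and stood at -0.01 at 8 h, not called. Between the times all 3 rose, Wdfy3 by 0.38, Epg5 by 0.34 and Tecpr1 by 0.20.

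**Figure D3:**
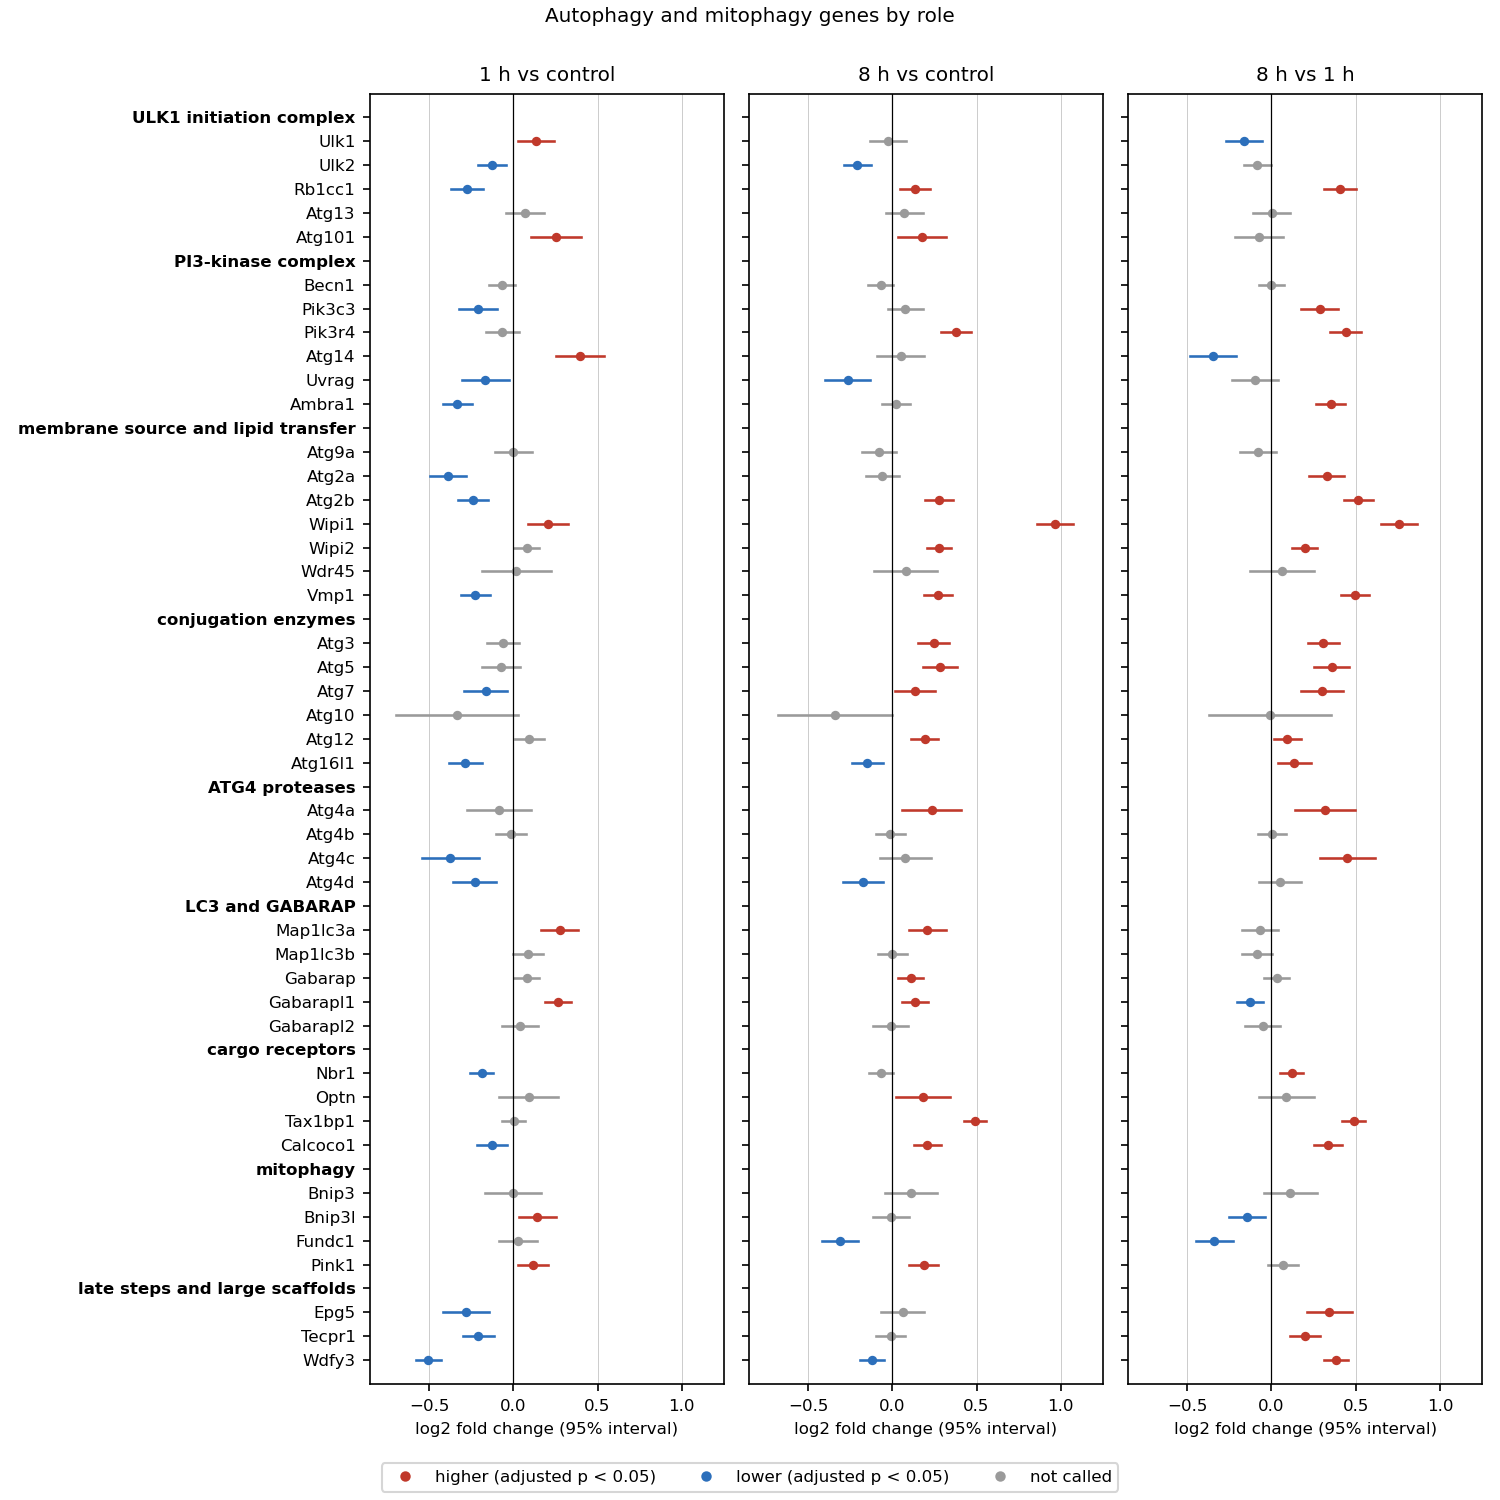
Log2 fold change of each member (horizontal axis) with its 95% interval, by role, for 1 h and 8 h against control and for 8 h against 1 h, from the authors' deposited table; red marks genes called higher, blue genes called lower at an adjusted p below 0.05, and grey genes not called. Wipi1 at 8 h, at 0.96, lies farthest from 0, and all 3 late-acting and scaffold genes are lower at 1 h, as are 22.2% of all genes.

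The members' direction went with the genomic length of their genes. The 44 spanned 1.78 to 289 kb, with a median of 32.9 kb against 25.6 kb for the 13263 protein-coding genes of the table. Of the 22 shorter members, up to 29.8 kb, 7 were higher and 5 lower at 1 h in the authors' deposited table, with a median log2 fold change of 0.04. Of the 22 longer members, from 36.0 kb, 1 was higher and 12 lower, with a median of -0.17. From 1 h to 8 h the shorter members were split, 6 higher and 5 lower with a median of 0.02, while 16 of the longer were higher and 0 lower with a median of 0.33. At 8 h against control 8 of the shorter were higher and 2 lower, and 11 of the longer were higher and 4 lower.

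Fold changes of protein-coding genes as a whole also went with span. In 8 bins of equal size by span, the median log2 fold change at 1 h went from 0.12 in the shortest to -0.25 in the longest, and the share called lower from 5.13% to 61.5%. At 8 h against 1 h the median went from -0.07 in the shortest to 0.13 and 0.09 in the longest 2 bins, and the share called higher was 17.01% in the shortest, 42.8% in the sixth, 50% in the seventh and 44.8% in the eighth. With the median of its own bin subtracted, a member's median log2 fold change was -0.03 at 1 h, 0.07 at 8 h and 0.11 between the times. Above the median of their bin were 20 members at 1 h, 28 at 8 h and 30 at 8 h against 1 h. Called against that median were 15 members at 1 h, 5 higher and 10 lower, where 37.3% of the protein-coding genes were called, 17.8% higher and 19.5% lower. At 8 h 24 were called, 18 higher and 6 lower, where 59.9% of those genes were, 29.1% higher and 30.8% lower. Between the times 30 were called, 24 higher and 6 lower, where 66.0% were, 32.6% higher and 33.4% lower. Span moved with the members' direction, and its part in their changes was not tested.

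**Figure D4:**
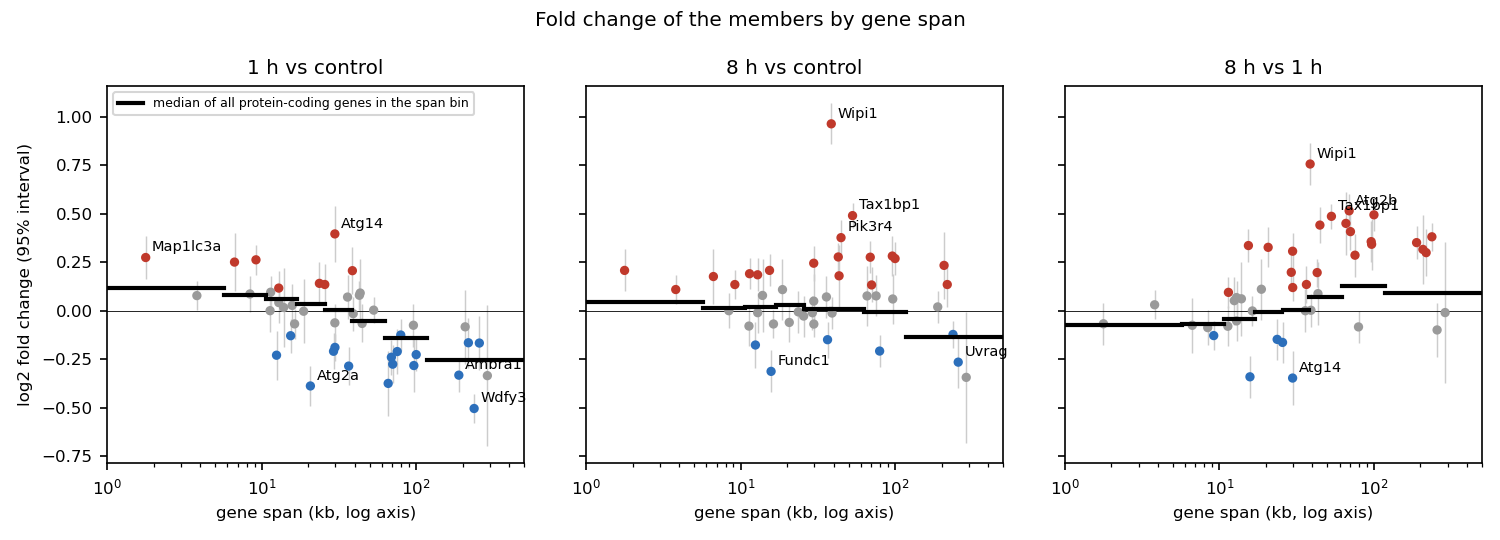
Log2 fold change of the 44 members (vertical axis, points with 95% intervals) against gene span in kb on a log axis, for the 3 comparisons; red marks members called higher, blue lower and grey not called, and black bars give the median of all protein-coding genes in each of 8 span bins, the longest drawn to the edge of the axis. At 1 h the bars fall from 0.12 to -0.25, and at 8 h against 1 h 16 of the 22 longer members are higher and 0 lower.

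Further genes of the pathway, 70 of 73 listed being in the table, were also more often higher than lower at 8 h. A total of 12 were higher and 17 lower at 1 h in the authors' deposited table, 32 higher and 9 lower at 8 h, and 36 higher and 13 lower at 8 h against 1 h. In either direction 41.4% were called at 1 h and 58.6% at 8 h, near the 42.7% and 55.7% of all genes. At 8 h 45.7% were higher and 12.9% lower, against 27.4% and 28.2% of all genes, and the medians were -0.03, 0.12 and 0.13. At 8 h against 1 h 51.4% were higher and 18.6% lower, against 30.3% and 32.4% of all genes. Upstream regulators (24) counted 7 higher and 6 lower at 1 h, and 13 higher and 3 lower at 8 h. Other machinery (19 of 20 listed) counted 3 and 6, then 7 and 3. Other receptors and mitophagy genes (27 of 29 listed) counted 2 and 5, then 12 and 3.

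Among the upstream regulators, Trp53inp1 and Sesn2 had the smallest adjusted p of those that rose at 1 h. Dram1, a p53-induced lysosomal protein named here after its value was seen, stood at 1.82 at 1 h and 0.12 at 8 h (not called), at a mean of -0.42 log2 CPM. Trp53inp1, a p53 target that binds LC3, rose by 1.20 at 1 h (SE 0.039, adjusted p = 7.1e-200) and by 1.14 at 8 h (SE 0.039, adjusted p = 8.9e-184) in the authors' deposited table. Sesn2, a sestrin that restrains mTORC1, rose by 1.16 (SE 0.034, adjusted p = 2.3e-245) and by 0.96. Mtor, the kinase that holds ULK1 inactive in fed cells, fell by 0.36 at 1 h and by 0.09 at 8 h, and Rptor, its partner in mTORC1, was 0.35 lower at 1 h and 0.21 higher at 8 h. The forkhead factor genes Foxo1 and Foxo3, whose products act on autophagy genes in other tissues, stood at 0.03 (not called) and 0.22 at 1 h and rose by 0.97 and 0.70 at 8 h. Prkaa2, a catalytic subunit of AMPK, stood at 0.01 at 1 h, not called, and rose by 0.93 between the times. Tfeb, a main regulator of lysosome and autophagy genes, was not called in any comparison, at -0.07, -0.10 and -0.03.

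Of the other machinery, Vps41, a subunit of the HOPS complex that tethers autophagosomes to lysosomes, was 0.19 lower at 1 h and rose by 0.45 at 8 h (SE 0.035, adjusted p = 3.7e-36) in the authors' deposited table. Its partners differed, with Vps18 higher at both times (0.23 and 0.28), Vps39 higher at 8 h (0.26), Vps33a lower at 1 h (-0.22) and Vps16 lower at 8 h (-0.26). Rubcn, which restrains the UVRAG-containing lipid kinase complex, was 0.17 lower at 1 h and 0.12 higher at 8 h. Sh3glb1, which binds UVRAG, was 0.24 lower at 8 h.

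The cargo receptor gene Sqstm1, p62, showed the largest called rise of the receptors at 1 h, 0.40 (SE 0.036, adjusted p = 3.0e-26), and reached 0.82 at 8 h (SE 0.036, adjusted p = 9.4e-115) in the authors' deposited table. Rtn3, a receptor of the tubular endoplasmic reticulum, was 0.28 lower at 8 h. Mfn1 and Mfn2, which encode mitochondrial fusion proteins, were both 0.15 lower at 1 h, and at 8 h Mfn1 stood at 0.00, not called, and Mfn2 at 0.22, called higher. Usp8 and Usp15, which encode deubiquitinases, were lower by 0.15 and 0.22 at 1 h, and at 8 h Usp8 was 0.16 higher and Usp15 was not called at 0.07. Rhot1, a mitochondrial transport protein, and Vcp, a segregase for ubiquitinated proteins, were higher at 8 h, by 0.22 and 0.23.

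**Figure D5:**
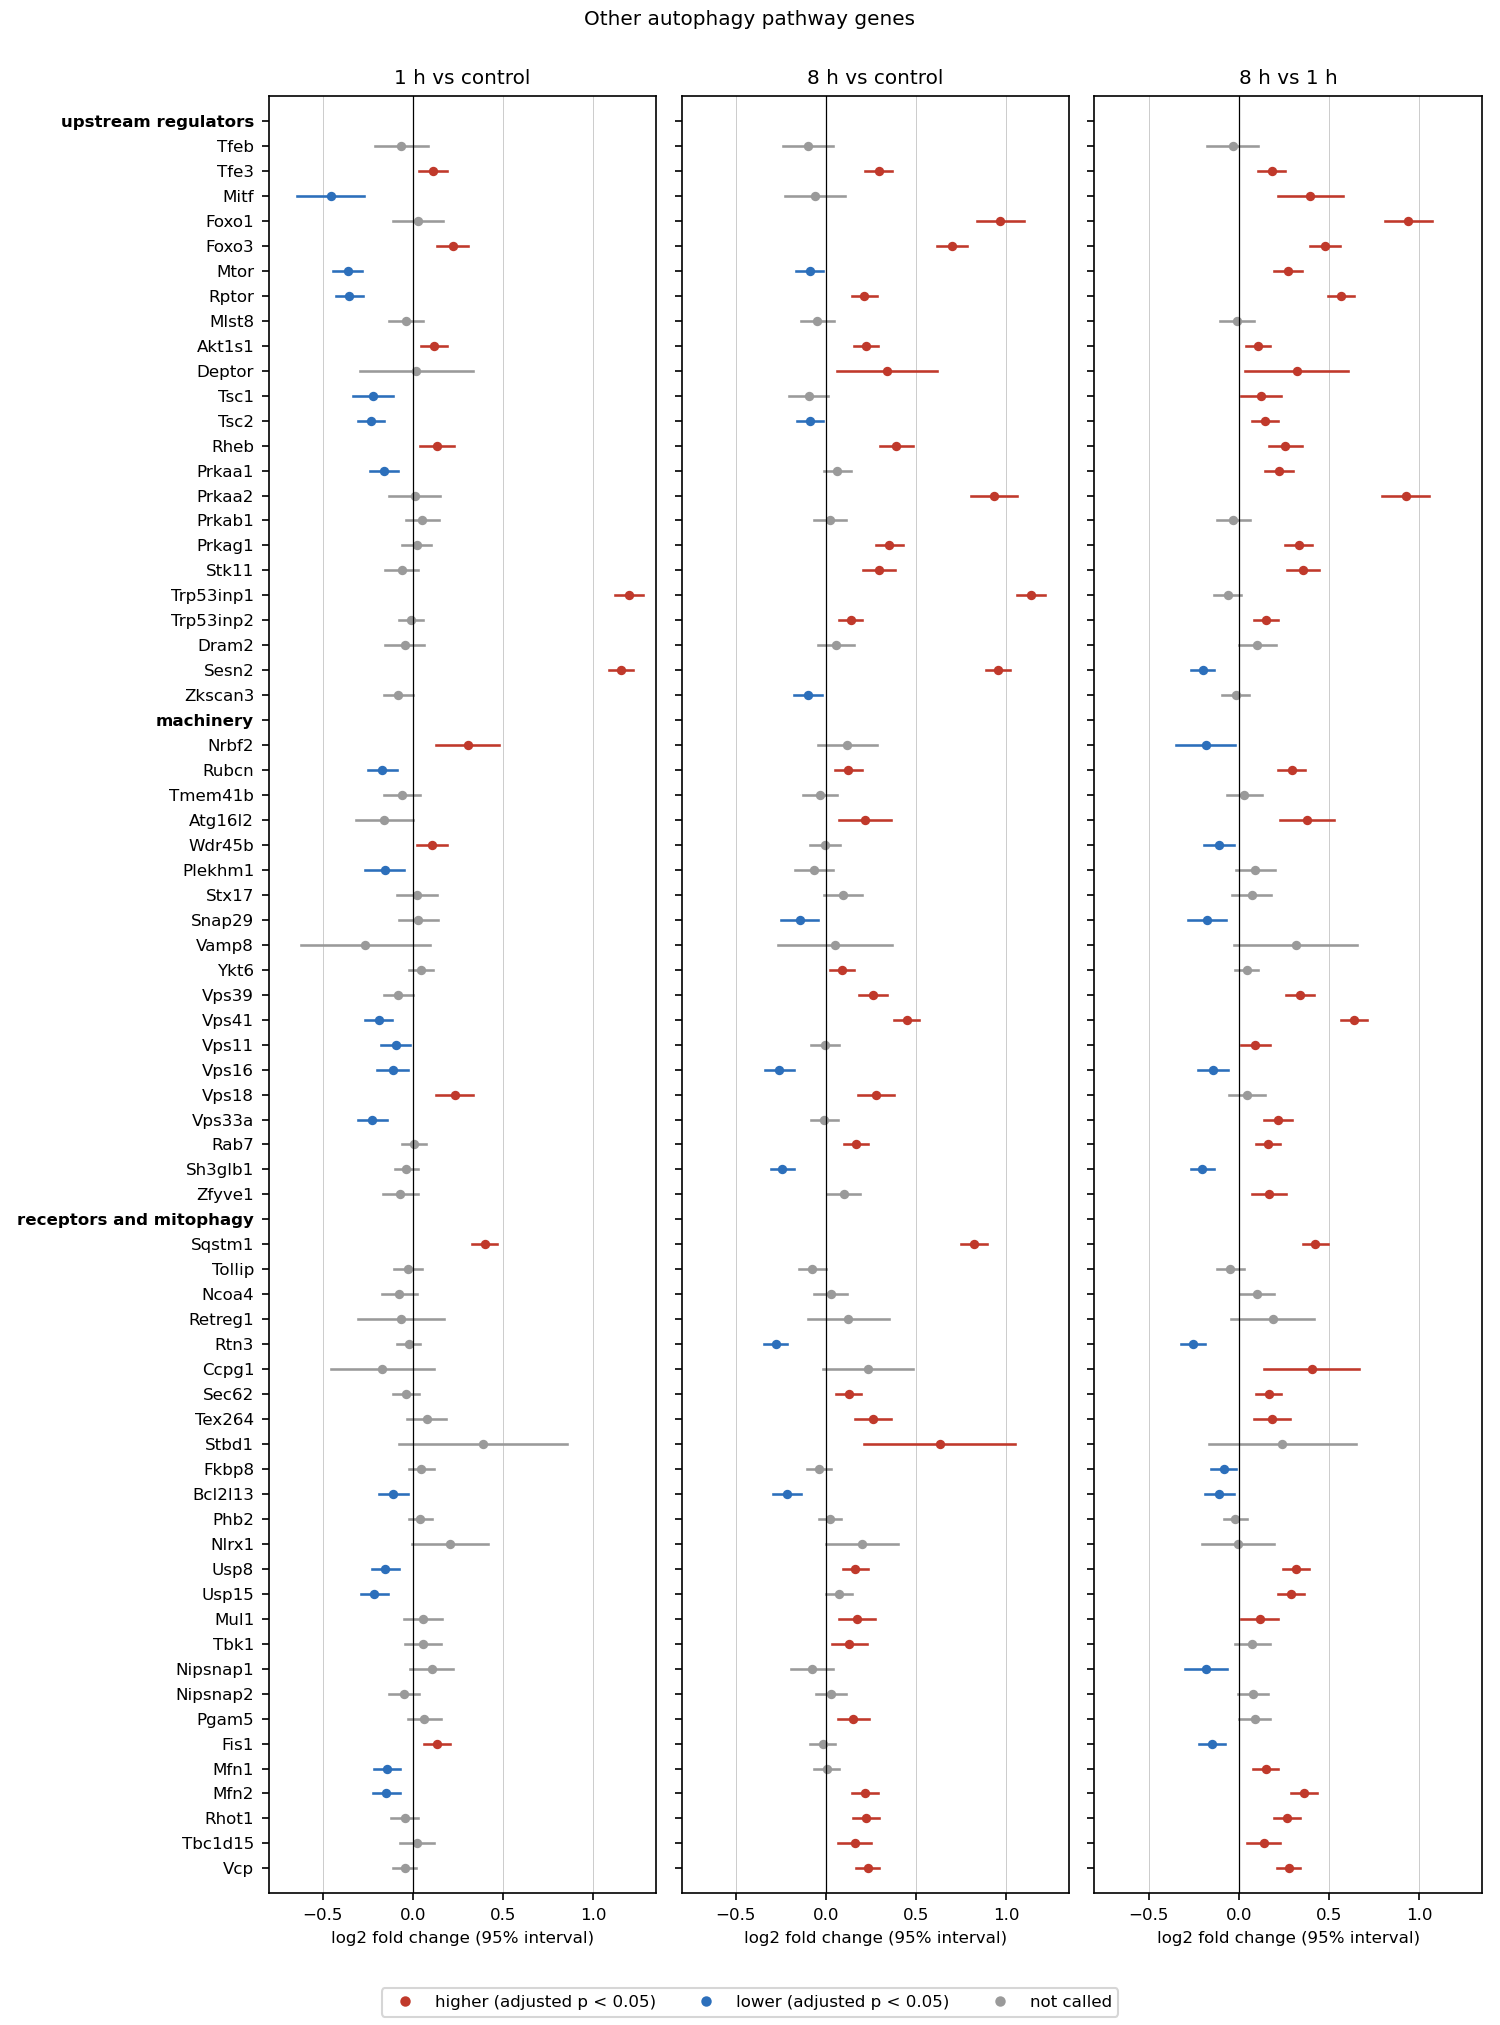
Log2 fold change (horizontal axis) with 95% interval of 68 of the 70 further pathway genes in the table, by list, for the 3 comparisons, with colours as for the members; genes whose intervals reach beyond the axis are not drawn. Trp53inp1 and Sesn2 stand at 1.20 and 1.16 at 1 h, and Foxo1 at 0.97 at 8 h.

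The authors also deposited their own competitive gene set tests, with p-values adjusted over the sets of a collection. For KEGG, in the authors' deposited table, the larger autophagy set (130 genes) was directed down at 1 h with adjusted p = 0.145, up at 8 h with adjusted p = 0.0478 and up at 8 h against 1 h with adjusted p = 0.00605. The KEGG mitophagy set (64 genes) was directed up in all 3 comparisons, with adjusted p = 0.274, 0.00451 and 0.0806. In the deposited Reactome table macroautophagy (98 genes) was directed up, with adjusted p = 0.909, 0.0258 and 0.0719, and selective autophagy (48 genes) likewise, with adjusted p = 0.452, 0.0403 and 0.272. These sets overlap one another and the members, so they are not separate evidence of direction.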

How the data were processed

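Per the labels, poly-A RNA of 12 samples was sequenced from stranded libraries. The submitters' processing notes name build GRCm38, edgeR and limma. Per the file headers, reads were counted per gene with featureCounts and tested with the edgeR GLM pipeline by likelihood ratio. The authors' other table of genes comes from voom and limma. Fold changes and mean levels were deposited in log2 units. The deposited p-value columns hold the authors' p-value and its Benjamini-Hochberg form. The likelihood ratio, a score without a fixed range, was deposited beside them. The deposited tables also hold other columns, such as exon length and gene counts of sets. Outlier samples were removed by the authors, per the labels of the tables; the sources used here do not name them, the design formula or the counting strand. No file gave values of single samples (0 columns), so no count test was run, and the planned count test gave way to the deposited one.

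The members and all gene lists were chosen with earlier results of these data known. The adjusted p was recomputed over 15478 genes and matched to within 1.3e-15. SE is the absolute log2 fold change over the square root of the likelihood ratio; its median ratio to the voom SE was 1.06, 1.01 and 1.00 in the 3 comparisons. Intervals are 1.96 SE on either side. Replicates are samples of 4 animals. The span of a gene is its annotated length, and 8 bins of equal size were used. All members may be named; SE and adjusted p are given for up to 3 called members with the smallest adjusted p in each role group and comparison and for the extremes. Of each other list, up to 4 genes per comparison with the smallest adjusted p are named, plus Sqstm1, Tfeb and Mtor; an item that the rule also chooses is not reported here; values of a named gene in other comparisons are given beside it. Overlapping genes and Dram1 were named after their values were seen. Scripts used Python 3.11.15, pandas 2.3.3, NumPy 2.4.6 and SciPy 1.17.1, and were tested on simulated data.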

Additional observations from a re-analysis of the deposited data

Results flagged for a closer look

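Among the members, 5 were lower than control at 1 h and higher than control at 8 h, each with a called difference between the times in the authors' deposited table, by the edgeR likelihood ratio test. The difference, 8 h against 1 h on the log2 scale, was 0.52 for Atg2b (adjusted p = 6.8e-31), 0.50 for Vmp1 (adjusted p = 2.0e-29), 0.41 for Rb1cc1 (adjusted p = 8.5e-17), 0.34 for Calcoco1 (adjusted p = 4.9e-14) and 0.30 for Atg7 (adjusted p = 4.8e-06). That is 5 of the 44, or 11.4%, against 1500 genes, or 9.69%, of the whole table that were called at both times with opposite signs and between the times. The 1500 were counted in either order of signs, and their share lower at 1 h and then higher was not counted. Both times share the control samples, and the number of samples behind each value is unknown.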

How the results depend on the processing

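With a log2 fold change of at least 0.32 in either direction required as well, the called members were 5 at 1 h (1 higher, 4 lower), 3 at 8 h (3 higher, 0 lower) and 15 at 8 h against 1 h (13 higher, 2 lower), where 17.99%, 29.6% and 36.7% of all genes were called. By direction, with that size required, 10.9% of all genes were higher and 7.07% lower at 1 h. The shares were 12.3% and 17.4% at 8 h, and 14.6% and 22.1% at 8 h against 1 h. At an adjusted p below 0.01 the members higher at 1 h were 5, where 14.8% of all genes were higher. With the median of the span bin subtracted, an alternative chosen after seeing the data, the called members at 1 h were 15 (5 higher, 10 lower). Of the protein-coding genes 17.8% were then higher and 19.5% lower. Every other count of members stayed within 1.5 times, and the 3 medians kept their sign, in the voom table, with the median of all genes set to 0 and among genes with a mean of at least 1 log2 CPM. Of single calls, 2 at 1 h and 3 at 8 h were lost in the voom table, 2 and 2 with the median of all genes set to 0, and 0 between the times. No paired analysis was possible because the tables hold no values of single samples; for the same reason no sample could be left out. The depth of each sample is unknown, so counting limits cannot be given.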
